A study of Homo sapiens with 4 samples.

Results

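Human chromosome 19 carries many large clusters of C2H2 zinc finger genes, and 239 of its genes with a ZNF symbol were followed here in Huh7 cells given hydrogen peroxide. The rule for them used name and place and no measured value: a symbol of ZNF and a number, chromosome 19, and a RefSeq mRNA accession in the deposited tables. The tables held 42067 gene names in all. The 239 genes had 393 transcript models between them, and each gene was represented by the model with the most reads. Of the 239 genes, 232 had a mean of at least 10 reads per library and were tested.

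Huh7 is an established line from a human hepatocellular carcinoma, and all 4 libraries came from this 1 line, grown in DMEM with fetal bovine serum. The treated group received 300 µM H2O2 for 4 days with the medium replaced every day, and the mock group had the same 4 days of daily medium changes without H2O2. Each group had 2 libraries, 1 titled with the letter H and 1 with the letter Q, letters that the labels do not explain. The labels call the libraries duplicates without naming separate cultures, so p-values measure the spread between these libraries, which may be technical.

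C2H2 zinc finger proteins bind DNA through repeated fingers, each a short loop in which a pair of cysteines and a pair of histidines hold a zinc ion. Many of those encoded on chromosome 19 also carry a KRAB domain, which recruits TRIM28 (KAP1) and through it the histone methyltransferase SETDB1, and thereby represses the bound DNA. Their best-known targets are transposable elements, and the genes themselves arose by repeated tandem duplication, so that neighbours along the chromosome are often close relatives. In bulk RNA, fewer cells that express a gene and less RNA per cell cannot be told apart.

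The libraries held 78126878 to 88409567 mapped read mates. The deposited counts, with 1 model per gene, summed to 103851326 to 113082498 per library, more than the mapped mates, and the source of the excess was not tested. Liver identity was present in every library: the summed level of 9 hepatocyte genes was 14132 and 5590 CPM (reads scaled to library size, with TMM factors) in mock H and Q, and 18289 and 10722 in H2O2 H and Q. The 4 blood markers summed to 4.13 to 7.09 CPM. Of these, PTPRC, CD3E and HBB stayed under 1 CPM in every library, and CD14 did not. The 3 fibroblast markers summed to 15.5 to 25.3 CPM, with COL3A1 under 1 CPM in every library, and the 3 endothelial markers to 2.31 to 2.88 CPM, with VWF and CDH5 under 1 CPM.

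The structure these genes share is shown by the coding bases of the last finger of 3 of them, those of smallest unadjusted p: ZNF441 among the higher and ZNF114 and ZNF580 among the lower genes. Each line runs from the first zinc-binding cysteine codon to the last zinc-binding histidine codon, with the 4 zinc-binding codons in capitals, read from GENCODE v29 transcripts on GRCh38.
ZNF114, codons 390 to 410: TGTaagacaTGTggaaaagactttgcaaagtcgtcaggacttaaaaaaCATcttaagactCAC
ZNF441, codons 673 to 693: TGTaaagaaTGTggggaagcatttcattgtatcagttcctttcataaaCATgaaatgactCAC
ZNF580, codons 152 to 172: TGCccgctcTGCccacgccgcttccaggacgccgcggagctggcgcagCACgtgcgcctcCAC
The 3 stretches have the same length of 63 bases and the same spacing of capitals. By the same pattern ZNF114 and ZNF580 had 3 fingers each and ZNF441 had 14. A coding sequence was matched for 236 of the 239 genes, by RefSeq accession for 224 and by symbol for 12, ZNF114 among the latter. The median was 12 fingers, and the most were the 36 of ZNF208 and the 34 of ZNF729. In 4 genes the pattern found 0 fingers in the matched transcript. A KRAB domain was found by pattern in 191 genes and not in 45. A strict pattern for the SCAN domain, a protein-pairing domain, matched ZNF444 and ZNF446, and other members may carry a SCAN domain that it missed.

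Their start sites also differ, and 4 promoters are shown for 2 genes that were higher and 2 that were lower in the H2O2 libraries. They are RefSeq sequences of GRCh38.p14, from 250 bases before to 50 after the start of the gene, read 5′ to 3′ on the gene's strand. The capitals mark GGGCGG, the GC box that Sp-family factors can bind.
ZNF441, chr19:11766750-11767049, plus strand: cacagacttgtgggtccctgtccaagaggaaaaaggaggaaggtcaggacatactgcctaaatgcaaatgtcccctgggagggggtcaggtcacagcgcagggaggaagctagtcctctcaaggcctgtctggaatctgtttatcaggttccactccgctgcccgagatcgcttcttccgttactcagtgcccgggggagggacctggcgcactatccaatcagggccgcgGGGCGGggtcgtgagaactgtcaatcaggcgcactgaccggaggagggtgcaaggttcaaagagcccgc
ZNF77, chr19:2944922-2945221, minus strand: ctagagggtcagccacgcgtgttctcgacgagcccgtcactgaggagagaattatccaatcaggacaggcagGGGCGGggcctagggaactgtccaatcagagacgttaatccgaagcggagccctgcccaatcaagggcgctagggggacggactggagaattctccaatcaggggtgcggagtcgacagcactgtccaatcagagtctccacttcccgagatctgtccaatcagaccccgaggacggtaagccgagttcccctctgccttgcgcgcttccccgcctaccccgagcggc
ZNF580, chr19:55640752-55641051, plus strand: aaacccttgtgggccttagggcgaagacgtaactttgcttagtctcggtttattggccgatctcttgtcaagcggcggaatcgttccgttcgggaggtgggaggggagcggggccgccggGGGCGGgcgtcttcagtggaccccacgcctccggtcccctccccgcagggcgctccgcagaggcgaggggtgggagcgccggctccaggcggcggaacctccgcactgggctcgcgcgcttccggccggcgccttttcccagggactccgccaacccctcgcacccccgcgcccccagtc
ZNF69, chr19:11887532-11887831, plus strand: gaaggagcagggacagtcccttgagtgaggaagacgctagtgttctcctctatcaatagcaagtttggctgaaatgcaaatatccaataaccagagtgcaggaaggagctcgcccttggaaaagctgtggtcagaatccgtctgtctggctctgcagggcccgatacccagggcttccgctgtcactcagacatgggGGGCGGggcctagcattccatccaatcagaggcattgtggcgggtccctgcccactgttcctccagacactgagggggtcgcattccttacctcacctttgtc
Each of the 4 windows holds 1 such box, while the number of CpG dinucleotides runs from 8 in ZNF69 and 14 in ZNF441 to 22 in ZNF77 and 35 in ZNF580. The box was thus present in genes of both directions.

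The zinc finger genes were expressed at low levels. Their median level per transcript length was 2.04 CPM per kb over the 229 genes tested with a length, against 5.91 for 15465 other mRNA genes and 3.45 for the ZNF genes of other chromosomes. These levels are deposited counts over GENCODE transcript length. The deposited FPKM did not follow them closely: its ratio to CPM per kb ran from 0.984 to 37.0 over the 229 genes (Spearman's rho 0.813 across genes), and ZNF506 ranked 5 by CPM per kb and 22 by FPKM. The range ran from 0.0482 for ZNF836 to 49.8 CPM per kb for ZNF444, and 25 of the 229 lay above the median of the other mRNA genes. Without scaling to length, the median gene stood at 6.42 CPM in mock H, 6.84 in mock Q, 6.73 in H2O2 H and 7.84 in H2O2 Q. The 7 genes left out of the tests had 13 to 36 reads over all 4 libraries. They were ZNF175, ZNF350, ZNF415, ZNF534, ZNF536, ZNF541 and ZNF649.

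The comparison asked how H2O2 exposure related to the RNA of these genes. No zinc finger gene of chromosome 19 passed an adjusted p of 0.05 in edgeR's quasi-likelihood test, where 0 of 27263 genes did (0%), and the lowest adjusted p among the 232 was 0.717. That fit had treatment as the sole term. With the title letter added as a replicate block in edgeR, 1 passed, ZNF114, where 57 of 27263 genes did. With DESeq2's Wald test 1 of them passed, ZNF114, where 0.561% of all genes with an adjusted p did, and with limma on log2 FPKM 0 did. At an unadjusted p under 0.05, 10 were higher in H2O2, a share to be read against the 3.16% of all genes tested. In the other direction 1 was lower, where 3.7% of all genes were.

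Most differences were small. The median log2 fold change of H2O2 over mock was 0.09 over the 232 genes, with quartiles of −0.16 and 0.32, and −0.03 over all 27263 genes tested. Of the 232, 137 had a log2 fold change above 0 (59.1%, against 47.2% of all genes tested) and 95 below. All genes tested include 10881 represented by a model without a RefSeq mRNA accession, of which 39.0% lay above 0. Of the 14944 mRNA genes of other chromosomes, ZNF genes left out, 52.7% lay above 0. The absolute log2 fold change was under 0.25 for 120 of the 232, while 22 lay above 0.5 and 8 below −0.5. The median absolute value was 0.23 and the median standard error 0.26, so a typical difference did not exceed its error. Without library H2O2 Q the median log2 fold change of these genes turned to −0.02, with 110 genes higher, and that of all genes tested to −0.05. Without mock H it was 0.03 for these genes and −0.02 for all genes tested.

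The libraries of the groups separated more often upward than downward in these genes. Both H2O2 values lay above both mock values for 66 genes (28.4%, against 18.2% of all genes tested) and below them for 28 (12.1%, against 21.4%), and the groups overlapped in the other 138. With 2 libraries a group, the smallest exact two-sided permutation p of a single gene is 0.333. Within letter H the median log2 ratio was 0.07 and within letter Q 0.13. The ratio was above 0 within both letters for 107 genes (46.1%, against 32.5%) and below 0 within both for 60 (25.9%, against 34.3%). Of the mRNA genes of other chromosomes, ZNF genes left out, 21.5% were separated upward and 17.6% downward. Their ratio was above 0 within both letters for 38.1% and below 0 within both for 30.4%.

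**Figure D1:**
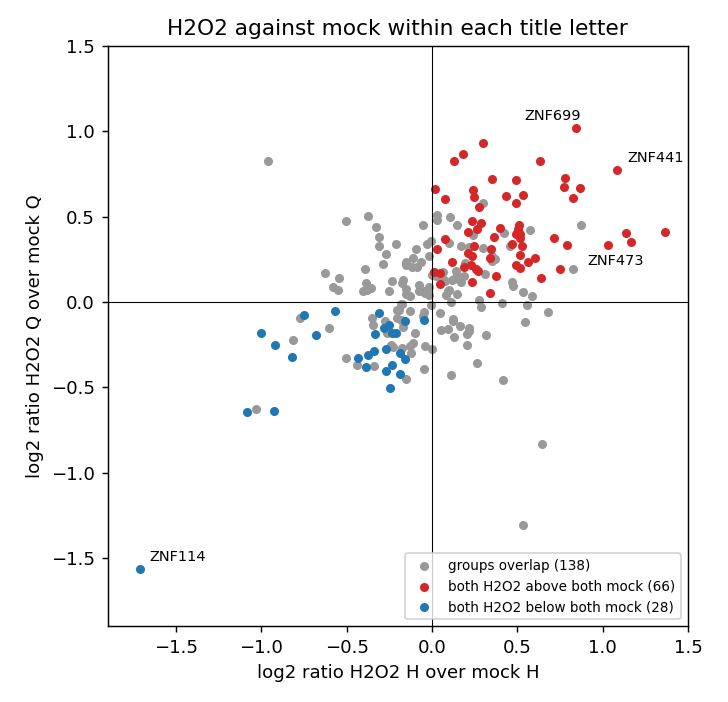
Log2 ratio of H2O2 over mock within letter H (x axis) and within letter Q (y axis) for the 232 genes tested, on CPM plus 0.1; each point is 1 gene, red where both H2O2 values lay above both mock values (66), blue where both lay below (28) and grey where they overlapped (138). Pearson's r across these genes was 0.506, ZNF114 stands alone at the lower left, and no gene reaches a comparable distance at the upper right.

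ZNF114 stood apart from the rest in the size of its difference. It encodes a KRAB protein with few fingers, and its level was 32.6 and 44.6 CPM in mock H and Q and 9.87 and 15 CPM in H2O2 H and Q. Both H2O2 libraries were thus far below both mock libraries, and within each pair of a letter the H2O2 value was lower. The log2 fold change was −1.63 ± 0.30 (SE, n = 2 per group), a level 3.10-fold lower, with an edgeR adjusted p of 0.717 and an unadjusted p of 0.00261. The log2 ratio was −1.71 within H and −1.57 within Q. By unadjusted p it ranked 61 of the 27263 genes tested, and 361 genes had a log2 fold change as low or lower. DESeq2's Wald test gave an adjusted p of 0.00367, and edgeR with the title letter as a replicate block gave 0.0324. Leaving out single libraries gave log2 fold changes from −1.95 to −1.36. The next lowest gene among the 232 was ZNF577, at −0.97. More than 3 other protein-coding genes separate ZNF114 from the nearest member on either side.

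The higher genes were led, by unadjusted p, by 8 genes whose groups did not overlap. ZNF441, a KRAB gene with 14 fingers, stood at 4.06 CPM in mock H, 4.94 in mock Q, 8.70 in H2O2 H and 8.51 in H2O2 Q. The H2O2 libraries were nearly alike and both above mock. Its log2 fold change was 0.94 ± 0.23 (SE, n = 2 per group), with an edgeR unadjusted p of 0.00975 and an adjusted p of 0.717. ZNF77 was at 3.16 and 3.41 CPM in mock and 5.83 and 5.49 CPM in H2O2 (log2 fold change 0.78 ± 0.23). ZNF569, described as a repressor acting through its KRAB domain, was at 5.83 and 6.43 CPM in mock and 10.0 and 10.3 CPM in H2O2 (0.73 ± 0.22). In these genes the H and Q libraries of a group differed by far less than the groups did. ZNF584 was at 3.26 and 3.61 CPM in mock and 5.68 and 6.05 CPM in H2O2 (0.77 ± 0.23). ZNF699 had the highest log2 fold change of the 232 genes at 0.99 ± 0.34, on low levels of 1.17 and 0.793 CPM in mock and 2.17 and 1.71 CPM in H2O2.

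The remaining 3 of the 8 were ZNF507, ZNF8 and ZNF14. ZNF507, which has no KRAB domain by pattern, was well above most of the set in level, at 32.9 and 38.2 CPM in mock H and Q and 54.2 and 49.5 CPM in H2O2 H and Q. Its log2 fold change was 0.55 ± 0.19 (SE, n = 2 per group). ZNF8 was at 3.67 and 4.75 CPM in mock and 6.61 and 7.30 CPM in H2O2 (0.72 ± 0.25), but 22.2% of the 50-base words of its transcript also occur under another gene name. Reads of ZNF8 and of such a partner may therefore not have been told apart. ZNF14 was at 10.7 and 7.95 CPM in mock and 16.7 and 14.1 CPM in H2O2 (0.72 ± 0.25). None of the 8 had a log2 fold change of 1 or more. Each remained above 0 when any single library was left out, which groups that do not overlap make nearly certain beforehand.

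**Figure D2:**
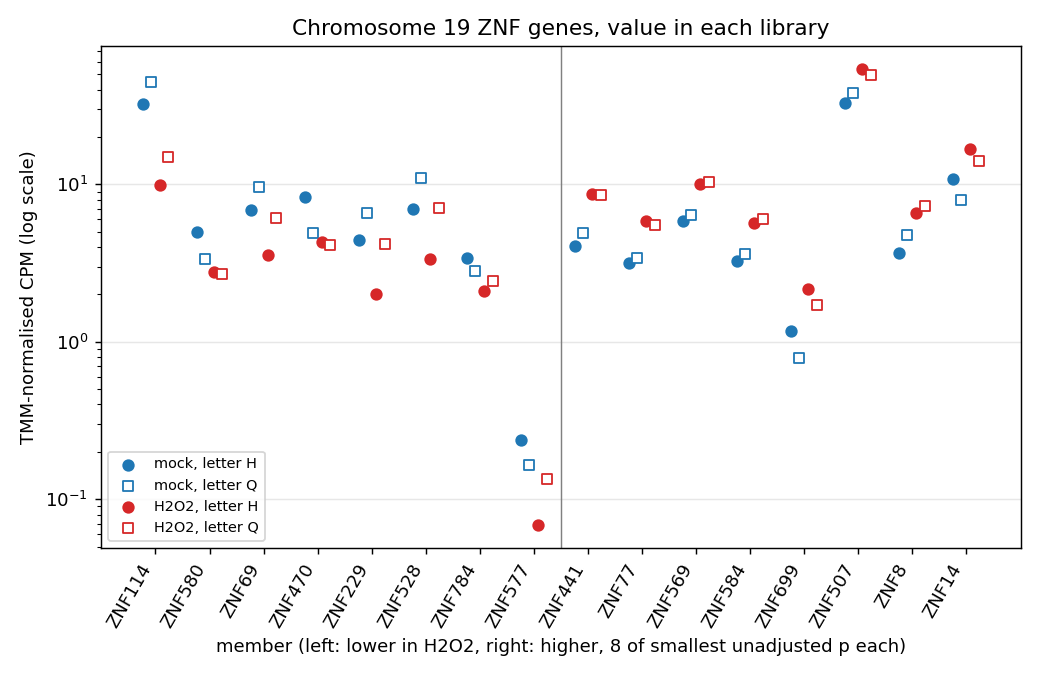
TMM-normalised CPM on a log axis of the 8 genes of smallest unadjusted p in each direction (left lower, right higher in H2O2), 1 symbol per library, blue for mock and red for H2O2, filled circles for letter H and open squares for letter Q. All 8 genes on the right have both red symbols above both blue ones, while ZNF528 on the left overlaps.

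On the lower side the genes after ZNF114 had larger unadjusted p than the 8 higher genes in the main edgeR fit. ZNF580, a gene of 3 fingers without a KRAB domain that has been described in endothelial cells as induced by oxidative and lipid signals, was at 4.97 and 3.38 CPM in mock H and Q and 2.77 and 2.68 CPM in H2O2 H and Q. The mock libraries differed from each other by more than Q differed between the groups. Its log2 fold change was −0.62 ± 0.29 (SE, n = 2 per group), with an edgeR unadjusted p of 0.0859. ZNF784 was at 3.43 and 2.82 CPM in mock and 2.10 and 2.45 CPM in H2O2 (−0.45 ± 0.27), and it lies in the same run of neighbours as ZNF580. ZNF470 was at 8.27 and 4.92 CPM in mock and 4.33 and 4.12 CPM in H2O2 (−0.64 ± 0.32), and mock H stood well above the other 3 libraries. In ZNF69, ZNF229 and ZNF528, Q exceeded H in both groups. ZNF69 was at 6.85 and 9.66 CPM in mock H and Q and 3.56 and 6.16 CPM in H2O2 H and Q (−0.76 ± 0.36), with 12.3% of its 50-base words shared with other gene names. ZNF229 was at 4.41 and 6.56 CPM in mock and 2.03 and 4.17 CPM in H2O2 (−0.82 ± 0.43), its H2O2 Q value close under mock H. The groups overlapped for ZNF528, at 6.93 and 11 CPM in mock and 3.34 and 7.09 CPM in H2O2 (−0.78 ± 0.45). ZNF577 lay near the limit of measurement, at 0.237 and 0.165 CPM in mock and 0.069 and 0.134 CPM in H2O2 (−0.97 ± 0.60). Single libraries moved 6 of these genes by more than 1.5 times. Without mock H, ZNF580 was at −0.31 and ZNF470 at −0.22, and without mock Q at −0.87 and −0.97. Without H2O2 H, ZNF69 was at −0.42, ZNF229 at −0.40, ZNF528 at −0.34 and ZNF577 at −0.58. Without H2O2 Q they were at −1.20, −1.42, −1.41 and −1.53.

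Of the 6 genes of the highest level per length, ZNF146, ZNF274 and ZNF787 had log2 fold changes of 0.25 to 0.39, and ZNF444, ZNF302 and ZNF506 lay between 0.02 and 0.14. ZNF444, a SCAN-domain factor first described as a regulator of an endothelial scavenger receptor gene, was at 122.7 and 79.5 CPM in mock H and Q and 113 and 91.7 CPM in H2O2 H and Q, with a log2 fold change of 0.02. The H libraries exceeded the Q libraries in both groups. ZNF787 was at 79.6 and 69.7 CPM in mock and 93.7 and 84.1 CPM in H2O2 (0.25). ZNF146 (OZF), made almost wholly of fingers and known as overexpressed in several carcinomas, was at 66.1 and 78.1 CPM in mock and 97.6 and 91.8 CPM in H2O2 (0.39 ± 0.19, SE). Both H2O2 values of ZNF787 and of ZNF146 lay above both mock values. ZNF274, which recruits SETDB1 to the 3′ ends of zinc finger genes, was at 30.9 and 46.8 CPM in mock and 39.9 and 55.8 CPM in H2O2 (0.30). Its log2 fold change was 0.03 without mock H, 0.05 without H2O2 Q, 0.52 without H2O2 H and 0.63 without mock Q. ZNF506 was at 17.7 and 20.1 CPM in mock and 16.6 and 24.9 CPM in H2O2 (0.14), and ZNF302 was at 35.0 and 34.4 CPM in mock and 34.6 and 36.5 CPM in H2O2 (0.04). In these 3 the groups overlapped. In mean level per length the order was ZNF444 at 49.8, ZNF787 at 42.5, ZNF146 at 25.1, ZNF274 at 17.1, ZNF506 at 13.9 and ZNF302 at 13.5 CPM per kb. On this scale ZNF787 (36.2 to 48.7 CPM per kb) lay wholly above ZNF146 (19.9 to 29.3 CPM per kb), while the libraries of the other neighbours in the order overlapped.

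A list of 18 members with a known role gave 16 that were tested, with 9 above 0 and 7 below, and a median log2 fold change of 0.08. Of the 16, 4 had both H2O2 values above both mock values, as 18.2% of all genes tested had, and 1 had both below, as 21.4% had. Among the repressors of retroelements, ZNF91, which silences SVA elements, was at 38.9 and 35.1 CPM in mock H and Q and 38.5 and 42.3 CPM in H2O2 H and Q (log2 fold change 0.13). ZNF93, which binds LINE elements, was at 15.4 and 26.2 CPM in mock and 14.1 and 21.9 CPM in H2O2 (−0.21). ZNF765, another binder of LINE elements, was at 10.0 and 10.6 CPM in mock and 8.91 and 11.6 CPM in H2O2 (−0.01). The groups overlapped in ZNF91 and ZNF765, and in ZNF93 the letters lay further apart than the treatments.

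The smallest edgeR p in this list was that of ZNF420 (APAK), a repressor of p53 that is released from it after DNA damage. ZNF420 was at 6.87 and 6.06 CPM in mock H and Q and 8.48 and 11.7 CPM in H2O2 H and Q, with a log2 fold change of 0.64 ± 0.26 (SE, n = 2 per group) and an edgeR unadjusted p of 0.0564. ZNF473, a component of the machinery that forms the 3′ ends of histone mRNAs, was at 9.84 and 18.0 CPM in mock and 20.2 and 22.7 CPM in H2O2 (0.63 ± 0.33). Its mock libraries lay further apart than its H2O2 libraries. Without mock H the log2 fold change of ZNF473 was 0.26, and without mock Q 1.12. With limma on log2(FPKM + 1) ZNF473 had the smaller unadjusted p, 0.078 against 0.197 for ZNF420. ZNF582, often methylated in carcinomas, was at 3.03 and 4.31 CPM in mock and 4.38 and 5.23 CPM in H2O2 (0.39), with 0.16 without mock H and 0.66 without mock Q.

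Other members of the list showed no separation. ZNF304, which recruits silencing factors to tumour suppressor genes, was at 12.9 and 15 CPM in mock H and Q and 12.9 and 16.7 CPM in H2O2 H and Q (log2 fold change 0.09). ZNF160 was at 26.8 and 17.0 CPM in mock and 17.9 and 18.0 CPM in H2O2 (−0.29), so that mock H alone was high. ZNF331, an imprinted gene, was at 1.65 and 4.88 CPM in mock and 1.19 and 3.76 CPM in H2O2 (−0.40 ± 0.73, SE), with Q above H in both groups. ZNF224, a repressor of aldolase A, was at 10.8 and 13.9 CPM in mock and 9.17 and 11.6 CPM in H2O2 (−0.25). Of the 50-base words of ZNF224, 48.2% lie on the opposite strand of another gene name, and whether the counting used strand is not stated in the sources. ZNF154, ZNF382 and ZNF671, often silenced by methylation in tumours, lay below the median gene of the set in every library, as did ZNF582. ZNF154 was at 0.258 and 0.421 CPM in mock and 0.235 and 0.360 CPM in H2O2 (−0.19). ZNF382 was at 1.10 and 2.25 CPM in mock and 1.65 and 2.07 CPM in H2O2 (0.15). ZNF671 was at 3.02 and 3.07 CPM in mock and 2.10 and 4.32 CPM in H2O2 (0.08). In ZNF154, ZNF382 and ZNF671 the groups overlapped.

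Along the chromosome the members fall into runs of neighbours, taken here as members with at most 3 other protein-coding genes between them, and 7 runs had at least 8 tested members. Over all genes tested, 47.2% lay above 0, 18.2% were separated upward, with both H2O2 values above both mock values, and 21.4% downward. In the run from ZNF565 to ZNF573 the median log2 fold change was 0.23, with 17 of 25 genes above 0 (68%), 11 separated upward (44%) and 3 downward (12%). In the run from ZNF627 to ZNF791, which holds ZNF441 and ZNF69, the median was 0.22, with 15 of 24 above 0 (62.5%), 10 separated upward (41.7%) and 4 downward (16.7%). Genes of opposite difference thus lay in the same run, ZNF441 at 0.94 and ZNF69 at −0.76. The medians were 0.15 in the run from ZNF317 to ZNF846 (11 genes), 0.10 from ZNF283 to ZNF180 (19 genes), 0.09 from ZNF264 to ZNF446 (43 genes) and 0.04 from ZNF101 to ZNF254 (32 genes).

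The run from ZNF577 to ZNF331 had the only median below 0 among the 7. It holds 36 members, of which 32 were tested, and its median log2 fold change was −0.20, with 10 genes above 0 and 22 below. Within letter H the median was −0.15, and within Q it was −0.12. Both H2O2 values lay below both mock values for 6 of its genes (18.8%) and above for 5 (15.6%), near the 21.4% and 18.2% of all genes tested. Its highest genes were ZNF615 at 0.72 and ZNF614 at 0.54. Its 2 lowest genes were ZNF577 and ZNF528. The difference between the runs was not tested, because neighbouring genes share sequence and libraries. With limma on log2(FPKM + 1) its median was −0.04, with 14 of 32 above 0, and with log2(FPKM + 0.1) it was −0.07. Single libraries moved these medians too. Without mock Q the run from ZNF577 to ZNF331 had a median of 0.01, without mock H that from ZNF627 to ZNF791 was at −0.02, and without H2O2 Q those from ZNF565 to ZNF573, ZNF283 to ZNF180 and ZNF264 to ZNF446 were at −0.01, −0.17 and −0.05. The run from ZNF317 to ZNF846 went from 0.15 to 0.03 without mock H and to 0.01 without H2O2 Q. The medians of shorter runs lay on both sides of 0. That from ZNF582 to ZNF835 was at −0.21, with 2 of 7 genes above 0, and that from ZNF554 to ZNF77 at 0.42, with 4 of 5.

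**Figure D3:**
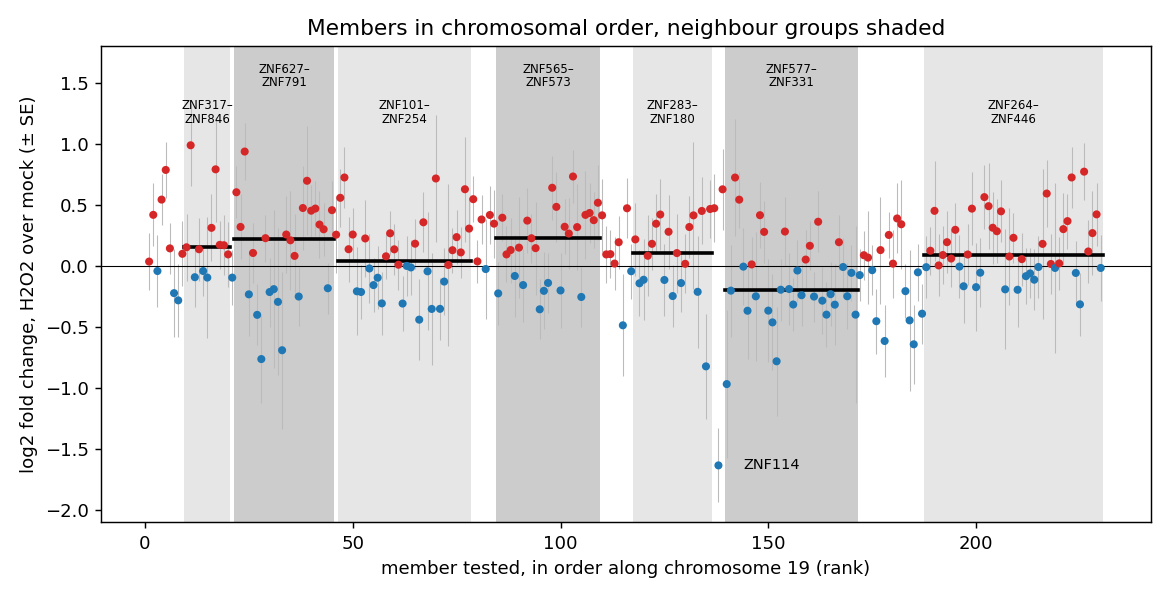
Log2 fold change of H2O2 over mock, with the standard error as a thin bar, for the tested genes placed on the RefSeq gene order, ranked along chromosome 19; shading marks the 7 runs of neighbours and black bars their medians. The bars lie between 0.04 and 0.23 in 6 runs and at −0.20 in the run from ZNF577 to ZNF331. ZNF114 at −1.63 lies before that run, with ZNF473 at 0.63 between them.

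By protein structure, the 186 tested genes with a KRAB domain had a median log2 fold change of 0.10, with 114 above 0, and the 43 without had a median of −0.02, with 21 above 0. Both H2O2 values lay above both mock values for 54 of the KRAB genes (29%) and below for 20 (10.8%), and for 12 (27.9%) and 8 (18.6%) of the others, against 18.2% and 21.4% of all genes tested. Leaving out single libraries moved the KRAB median from −0.01 (without H2O2 Q) to 0.22 (without mock Q), and that of the others from −0.03 to 0.03. With limma on log2(FPKM + 1) the medians were 0.21 with KRAB and 0.15 without, where 26 of 43 lay above 0. Genes without KRAB stood at both ends, with ZNF121 at 0.79 and ZNF507 at 0.55, and ZNF580 at −0.62. By finger number the medians were 0.02 for the 47 genes with 0 to 8 fingers by pattern, 0.12 for the 112 with 9 to 14 and 0.09 for the 70 with 15 or more. The genes of most fingers were low in level. ZNF208 was at 1.27 and 1.06 CPM in mock H and Q and 0.714 and 0.996 CPM in H2O2 H and Q (log2 fold change −0.44), and ZNF729 stayed under 1 CPM in every library (−0.35). Of the tested genes, 58 shared over 10% of their 50-base words with other gene names, so that their counts may include reads of relatives.

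A promoter sequence was matched for 209 of the 239 genes, with a median of 20 CpG dinucleotides in 300 bases, against 23 for other mRNA genes. GGGCGG, searched on both strands, occurred in 67% of them, in 59.4% of the promoters of other mRNA genes and in 44.6% of all promoters in the table. Tested genes with it had a median log2 fold change of 0.02 (72 of 136 above 0) and those without it 0.17 (48 of 67 above 0). With single libraries left out these medians ran from −0.05 to 0.14 and from 0.05 to 0.26, the lower end of each without H2O2 Q. With limma they were 0.18 and 0.25 on log2(FPKM + 1) and 0.22 and 0.27 on log2(FPKM + 0.1), a smaller gap. TGACNNNGC, the core of the antioxidant response element bound by NRF2, occurred on either strand in 14.8% of the members' promoters, 14.3% of those of other mRNA genes and 13.6% of all promoters, and the median log2 fold change was 0.14 with it (19 of 30 above 0) and 0.09 without (101 of 173 above 0). TGACGTCA, the cyclic AMP response element, occurred on either strand in 3.35% of the members' promoters, 2.6% of those of other mRNA genes and 1.98% of all promoters. The palindromic NRF1 motif occurred in 12.9%, 8.54% and 6.28% of them. The motifs were counted separately and occurrences may overlap. Such a match describes the letters of the window and is not evidence of binding.

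Among the partners through which KRAB proteins act, 20 genes were tested. Of these, 18 had a log2 fold change above 0, where 47.2% of all genes tested did. Left-out libraries lowered the 18 to 13 without H2O2 H, 15 without mock Q, 17 without mock H and 17 without H2O2 Q. In the edgeR test 0 passed, with 0 at an unadjusted p under 0.05, where 3.16% of all genes tested were higher and 3.7% lower. The median was 0.14, and 8 had both H2O2 values above both mock values and 1 had both below (18.2% and 21.4% of all genes tested). TRIM28, the shared corepressor, was at 491 and 389 CPM in mock H and Q and 483 and 429 CPM in H2O2 H and Q, a log2 fold change of 0.05 ± 0.24 (SE, n = 2 per group). SETDB1, the methyltransferase it recruits, was at 50.1 and 43.4 CPM in mock and 49.0 and 41.8 CPM in H2O2 (−0.04). Both genes differed more between letters than between treatments. SUV39H2, another H3K9 methyltransferase, was at 18.0 and 21.1 CPM in mock and 24.6 and 28.4 CPM in H2O2 (0.44 ± 0.21, unadjusted p 0.085 in edgeR). ATF7IP, a cofactor of SETDB1, was at 27.5 and 50.2 CPM in mock and 52.4 and 61.3 CPM in H2O2 (0.55 ± 0.33). DNMT1, the maintenance DNA methyltransferase, was at 133 and 190 CPM in mock and 211 and 216 CPM in H2O2 (0.40 ± 0.24). In ATF7IP and DNMT1 mock H was the low library: without it their log2 fold changes were 0.18 and 0.17. CHD3, a NuRD remodeller that TRIM28 binds, was the lowest, at 228 and 230 CPM in mock and 193 and 220 CPM in H2O2 (−0.15).

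Compared with other gene sets, the chromosome 19 zinc finger genes lay near the ZNF genes elsewhere in the treatment comparison. The 235 tested ZNF genes of other chromosomes had a median log2 fold change of 0.12, with 152 above 0, 75 with both H2O2 values above both mock values (31.9%) and 24 below (10.2%), against 18.2% and 21.4% of all genes tested. The 971 other mRNA genes of chromosome 19 had a median of −0.03, with 453 above 0, 11.9% separated upward and 22.3% downward. Without H2O2 Q the medians were −0.02 for the chromosome 19 zinc finger genes and 0.08 for the ZNF genes elsewhere. Without mock Q they were 0.19 and 0.14. These are descriptions, and the differences between the sets were not tested.

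The H and Q libraries of a group also differed in these genes. The median log2 ratio of Q over H was 0.16 in mock and 0.20 in H2O2 for the 232 genes, against 0.07 and 0.02 for ZNF genes of other chromosomes and −0.05 and −0.10 for other mRNA genes of chromosome 19. Q exceeded H in both groups for 130 of the 232 (56.0%), for 37.9% of the ZNF genes elsewhere and for 36.8% of all genes tested. The KRAB genes had medians of 0.20 and 0.23, and those without KRAB −0.01 and −0.05. The letter medians of 0.16 and 0.20 thus exceeded the treatment median of 0.09. The summed hepatocyte level moved with the letters too, being lower in Q than in H in both groups. It moved with the treatment as well, being higher in H2O2 than in mock within each letter, and its part in the letter and treatment values was not tested.

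**Figure D4:**
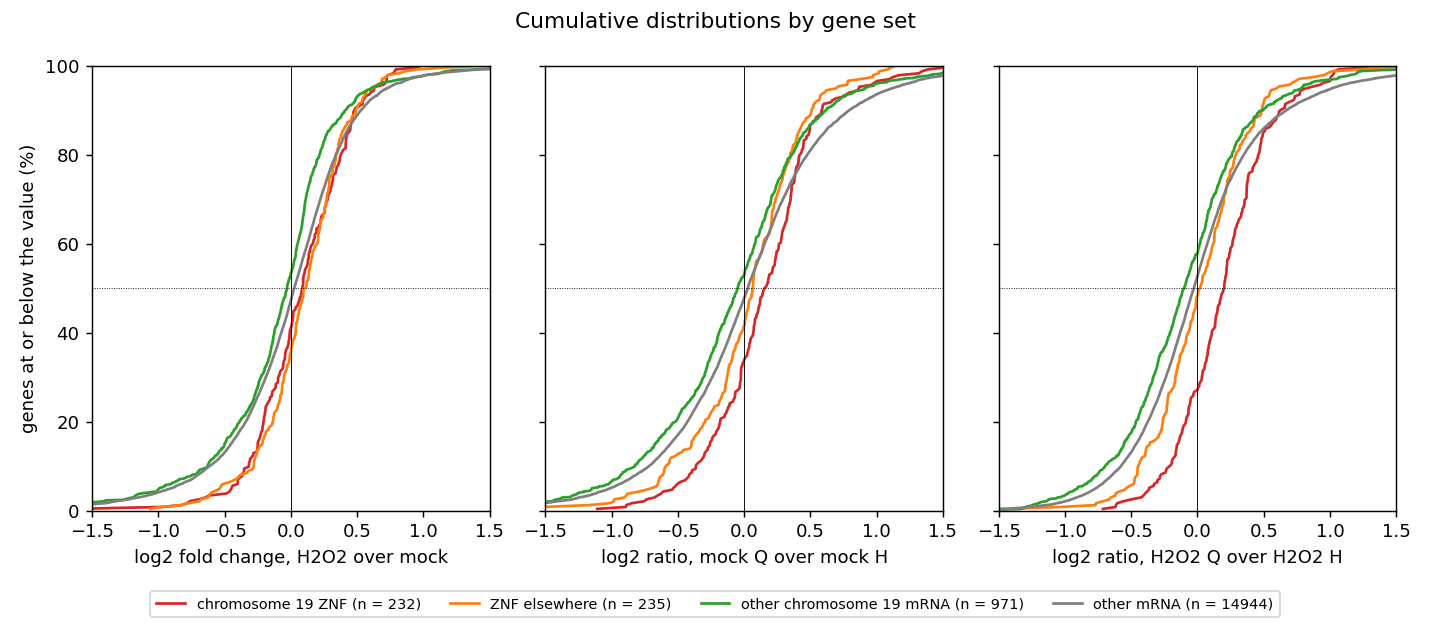
Cumulative share of genes (y axis, %) at or below a log2 value (x axis) for the treatment fold change (left) and for Q over H in mock (middle) and in H2O2 (right), for 4 gene sets. In the left panel the 2 ZNF curves run close together, with medians of 0.09 and 0.12, and in the other panels the chromosome 19 ZNF curve crosses 50% at 0.16 and 0.20, to the right of the other sets.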

How the data were processed

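RNA of 2 mock and 2 H2O2 libraries of Huh7 cells was measured by RNA sequencing (TruSeq RNA kit, per the labels). The submitters' processing notes list TopHat 1.3.3, Bowtie 0.12.2, Cuffdiff and CASAVA as tools and hg19, GRCh37 and mm8 as genome builds, without roles. Each of the 58146 transcript models had a deposited whole-number read count and a deposited FPKM, per the file headers, and the authors' deposited alignment summaries gave the mapped mates. The program that counted reads, and whether it used strand, are not given in the sources used here.

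Each gene was represented by its model with the most reads over the 4 libraries, and genes with a mean of at least 10 reads per library were kept (27263). The groups were compared in edgeR 4.0.16 by its quasi-likelihood test, two-sided (TMM factors of 0.933 and 1.12 for mock H and Q and 0.904 and 1.06 for H2O2 H and Q; treatment as the sole term; 2 residual degrees of freedom; Benjamini-Hochberg adjustment over all genes tested). The standard error was the log2 fold change over the square root of F. Ratios within a letter used CPM plus 0.1. The procedure was also run on simulated counts with known fold changes. The outcome is not reported here, and no result rests on it. DESeq2 1.42.0 and limma 3.58.1 on log2(FPKM + 1) and log2(FPKM + 0.1) were alternatives, with other filters, size factors, summed models, a letter block and left-out libraries. Fingers were counted in translated GENCODE 29 coding sequences, and promoters came from RefSeq.

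Named genes were the 8 of smallest unadjusted p in each direction, the 6 of highest level per length, a list of 18 with known roles, and of the partners TRIM28, SETDB1 and the 3 of smallest p in each direction. The members and lists were chosen with earlier results of these data known.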

Additional observations from a re-analysis of the deposited data

How the results depend on the processing

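With 2 libraries a group the fits had 2 residual degrees of freedom, which limits what they could call, and the 7 members under 10 reads a library could not be judged at this depth. Counts of members passing an adjusted p of 0.05 were 0 in edgeR and in the other alternatives, except for 1, ZNF114, with DESeq2's Wald test (141 genes of all passed) and 1, ZNF114 again, at an adjusted p of 0.0324, with the title letter as a replicate block (57 of all). Without the filter on low counts 9 of all genes passed. The H minus Q differences of the groups correlated at 0.520 across all genes, but the labels do not say that a letter marks a shared culture or day, so the letters were not treated as a pairing. Over the alternatives the adjusted p of ZNF114 ran from 0.00367 to 0.99996, and its log2 fold change from −1.95 to −1.36. The median log2 fold change of the members was 0.19 with limma on log2(FPKM + 1) and 0.22 with log2(FPKM + 0.1). For all genes tested it was 0.03 and 0.04. Leaving out single libraries gave medians from −0.0172 (without H2O2 Q) to 0.19 and 110 to 164 members above 0, the share being 47.2% without H2O2 Q and 70.4% without H2O2 H. With DESeq2 size factors 147 of 232 were above 0 and the median of all genes moved from −0.03 to −0.00059. Several named genes near 0 changed sign, and the cause was not tested. ZNF765 was at 0.0185 with DESeq2 size factors, 0.0186 with DESeq2, 0.0024 with summed models, 0.30 with limma on log2(FPKM + 1) and 0.31 on log2(FPKM + 0.1). In the same pair of limma fits ZNF382 was at −0.27 and −0.34 and ZNF671 at −0.0798 and −0.101, and ZNF154 was at 0.0139 in the first. ZNF671 was at −0.0068 with the replicate block, and ZNF444 at −0.0120 with a mean of at least 100 reads. With single libraries left out, the log2 fold change ran from −0.27 to 0.75 for ZNF382, −0.10 to 0.26 for ZNF304, −0.58 to 0.0797 for ZNF160, −0.16 to 0.0754 for SETDB1, −0.27 to 0.37 for ZNF444, −0.55 to 0.22 for ZNF93, −0.20 to 0.17 for ZNF765, −1.44 to 0.58 for ZNF331, −0.52 to 0.20 for ZNF154, −0.11 to 0.23 for TRIM28, −0.17 to 0.40 for ZNF506 and −0.53 to 0.50 for ZNF671. The other named genes tested kept their direction when single libraries were left out. Where the groups did not overlap, this was nearly certain beforehand.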
